A study of Mus musculus with 10 samples.

Results

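Transcripts of 34 genes that act in mitosis were followed through the differentiation of EML-C1, a line of mouse blood progenitors from which red cell and myeloid precursors can be raised. The genes were taken by name, from the kinases and cyclins that start mitosis to the proteins that end it, and the brightest probe on the array stood for each gene. All 34 were among the 14298 genes tested, which had a signal well above background on at least 2 of the 10 arrays. Of the 34, 33 were well above background on every array, as were 74.4% of all genes tested. Cenpf was so on 8 arrays, the exceptions being EPO Sca1-low and EPO day 6.

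Untreated cells at day 0 gave 1 array, and each of 3 treatments gave 3 arrays: the Sca1-low and Sca1-high fractions sorted at day 3, plus a day 6 sample whose labels mention no fraction. One treatment was erythropoietin (EPO) at 10 ng/ml, which drives red cell formation. The treatment labelled IL-3/GM-CSF was IL-3 at 10 ng/ml with all-trans retinoic acid at 10 µM, with GM-CSF at 10 ng/ml added only after day 3, so its day 3 cells had not yet received GM-CSF. The combined treatment joined all of these. Every array came from this single line, all cultures contained horse serum and conditioned medium, and each condition had 1 array. No spread between replicates can therefore be given, and the duplicate samples mentioned in the series' design were not analysed here. Sca1 is a surface protein of progenitors encoded by Ly6a, whose level was -4.25 to -2.80 in Sca1-low and 1.89 to 4.76 in Sca1-high cells, and which was not well above background on EPO Sca1-low alone.

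As background, a cell enters mitosis when the kinase Cdk1, bound to a cyclin, becomes active. Chromosomes are packed, attached to the spindle through their kinetochores and held back by the spindle checkpoint until every attachment is made. The anaphase-promoting complex, a ubiquitin ligase, then marks cyclins and the separase inhibitor for destruction, the sister chromatids part and the cell divides. Many of these genes are transcribed from late S phase to mitosis, under repression by the DREAM complex and activation by B-MYB and FOXM1, which act through CHR elements and, with the factor NF-Y, through CCAAT boxes. Blood progenitors divide during much of their maturation and stop dividing as the last steps are completed.

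The promoters are shown first because the 34 genes share letters there that played no part in choosing them. RefSeq promoter windows (GRCm38.p6), which run from 250 bases before to 50 bases after the gene start, were matched for 28 of the 34 genes. TTTGAA, the letters of a CHR element, occurred on either strand in 22 of the 28 genes (78.6%), against 20.2% of the 27025 genes in the table. CCAAT occurred on either strand in 23 of 28 (82.1%), against 41.1% of all genes. Both were found in 19 (67.9%), against 7.97% of all genes, and neither was found in Birc5 or Nuf2. Matches that overlap each other were counted. The sequences below are the 150 bases just before the start of 6 genes that the results turn on, written 5′ to 3′ along the gene, with matches to either set of letters in capitals. Read from the opposite strand, the CHR letters appear as TTCAAA. The CCAAT letters then appear as ATTGG. They lie at chr4:118437344-118437493 on the minus strand for Cdc20, chr2:164769779-164769928 on the plus strand for Ube2c, chr10:69352913-69353062 on the minus strand for Cdk1, chr11:99024190-99024339 on the minus strand for Top2a, chr7:135716380-135716529 on the minus strand for Mki67 and chr2:127831860-127832009 on the minus strand for Bub1.
Cdc20: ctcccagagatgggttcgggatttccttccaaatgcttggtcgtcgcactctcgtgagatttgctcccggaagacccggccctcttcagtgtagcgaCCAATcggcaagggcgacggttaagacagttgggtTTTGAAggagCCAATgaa
Ube2c: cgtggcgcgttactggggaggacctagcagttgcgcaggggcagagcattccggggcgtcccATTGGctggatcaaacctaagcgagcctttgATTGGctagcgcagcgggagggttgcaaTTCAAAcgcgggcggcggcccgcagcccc
Cdk1: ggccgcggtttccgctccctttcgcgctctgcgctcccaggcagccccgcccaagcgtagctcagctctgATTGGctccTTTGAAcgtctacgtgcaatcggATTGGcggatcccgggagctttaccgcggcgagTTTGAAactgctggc
Top2a: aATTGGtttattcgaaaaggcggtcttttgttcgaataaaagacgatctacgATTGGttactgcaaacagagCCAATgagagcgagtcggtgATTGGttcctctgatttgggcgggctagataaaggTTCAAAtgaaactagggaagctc
Mki67: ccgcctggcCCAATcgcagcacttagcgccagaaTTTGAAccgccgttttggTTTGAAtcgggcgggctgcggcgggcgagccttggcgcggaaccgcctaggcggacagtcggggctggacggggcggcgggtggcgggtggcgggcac
Bub1: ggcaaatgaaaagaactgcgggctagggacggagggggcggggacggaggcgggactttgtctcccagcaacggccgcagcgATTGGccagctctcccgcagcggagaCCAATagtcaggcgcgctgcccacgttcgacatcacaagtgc
In Cdc20, TTTGAA began 18 bases before the start and CCAAT matches began 53 and 8 bases before it. In Cdk1, TTTGAA began 71 and 15 bases before the start. Bub1 held matches to CCAAT but none to TTTGAA in its whole window. The median Sca1-low minus Sca1-high difference was 0.36 in genes with TTTGAA and 0.46 in those without, 2 medians given as a description. A match is a run of letters, and binding of a factor was not measured.

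**Figure D1:**
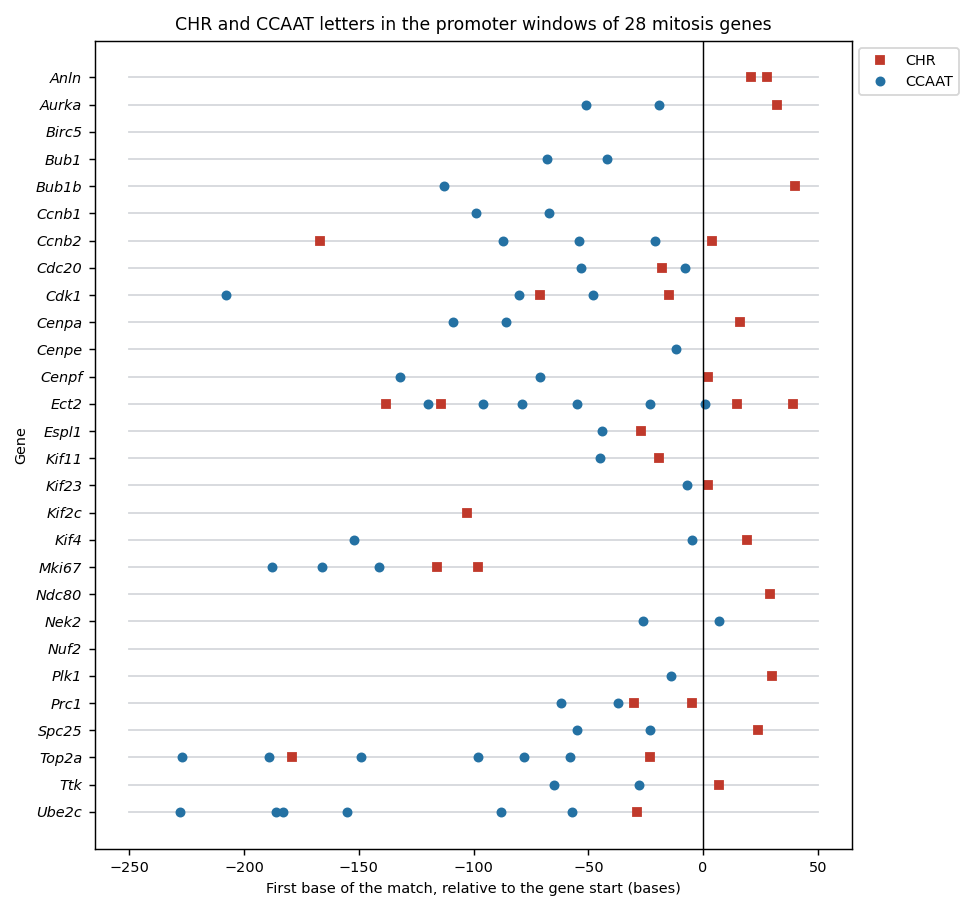
Positions of TTTGAA (CHR) and CCAAT matches on either strand in the promoter windows of 28 mitosis genes, in bases relative to the gene start at 0. Ect2 and Prc1 have 2 windows each, drawn over each other. Matches to TTTGAA occur in 22 genes and matches to CCAAT in 23.

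A level is the log2 of a signal over the 75th percentile of its array, so a level of 1 is a signal of 2 times that percentile, and all differences are on this log2 scale unless a fold is named. The 75th percentile ran from 309 to 736 intensity units, with the lowest value on EPO Sca1-low. Repeat spots of a probe had a median SD of 0.09 to 0.14 within an array, which covers printing and scanning and neither labelling nor culture. The arrays came from 3 slides, and both fractions of a treatment always shared one. Quantile normalization or background correction by normexp changed the all-gene median of a difference by as much as 0.22, as in EPO Sca1-low minus untreated (0.19 against -0.04), so shifts of the 34 genes are given beside those of all genes.

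Apart from Cenpf, the 34 genes were detected under every condition, and they stayed in a narrow band. The difference between the highest and lowest array ran from 0.52 for Incenp, the scaffold of the chromosomal passenger complex, to 1.94 for Cdc20, the activator of the anaphase-promoting complex. Its median was 1.07, against 1.57 over all genes. It was under 1.5 for 30 of 34 genes, against 47.3% of all genes tested. Of all genes tested, 74.4% were well above background on every array, so these are not equally detected genes. The range of genes detected as well as the 34 was not computed. Most genes had their highest level on one array and their lowest on another: 20 of 34 were highest on EPO day 6, and 22 of 34 were lowest on combined Sca1-high. All genes tested shifted the same way: their median difference from untreated cells was 0.16 on EPO day 6 and -0.19 on combined Sca1-high. With quantile normalization these medians were 0.01 and -0.13. The share of all genes highest or lowest on these arrays was not counted. The mean level of the 34 genes, relative to its average over the arrays, was 0.42 on EPO day 6, 0.27 on IL-3/GM-CSF Sca1-low, 0.11 on combined Sca1-low and 0.08 in untreated cells. It was -0.03 on IL-3/GM-CSF day 6 and on combined day 6, -0.05 on EPO Sca1-low, -0.17 on IL-3/GM-CSF Sca1-high, -0.19 on EPO Sca1-high and -0.42 on combined Sca1-high. Without replicates, neighbours in this order cannot be told apart. In bulk RNA, fewer dividing cells and less transcript per dividing cell cannot be told apart either.

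**Figure D2:**
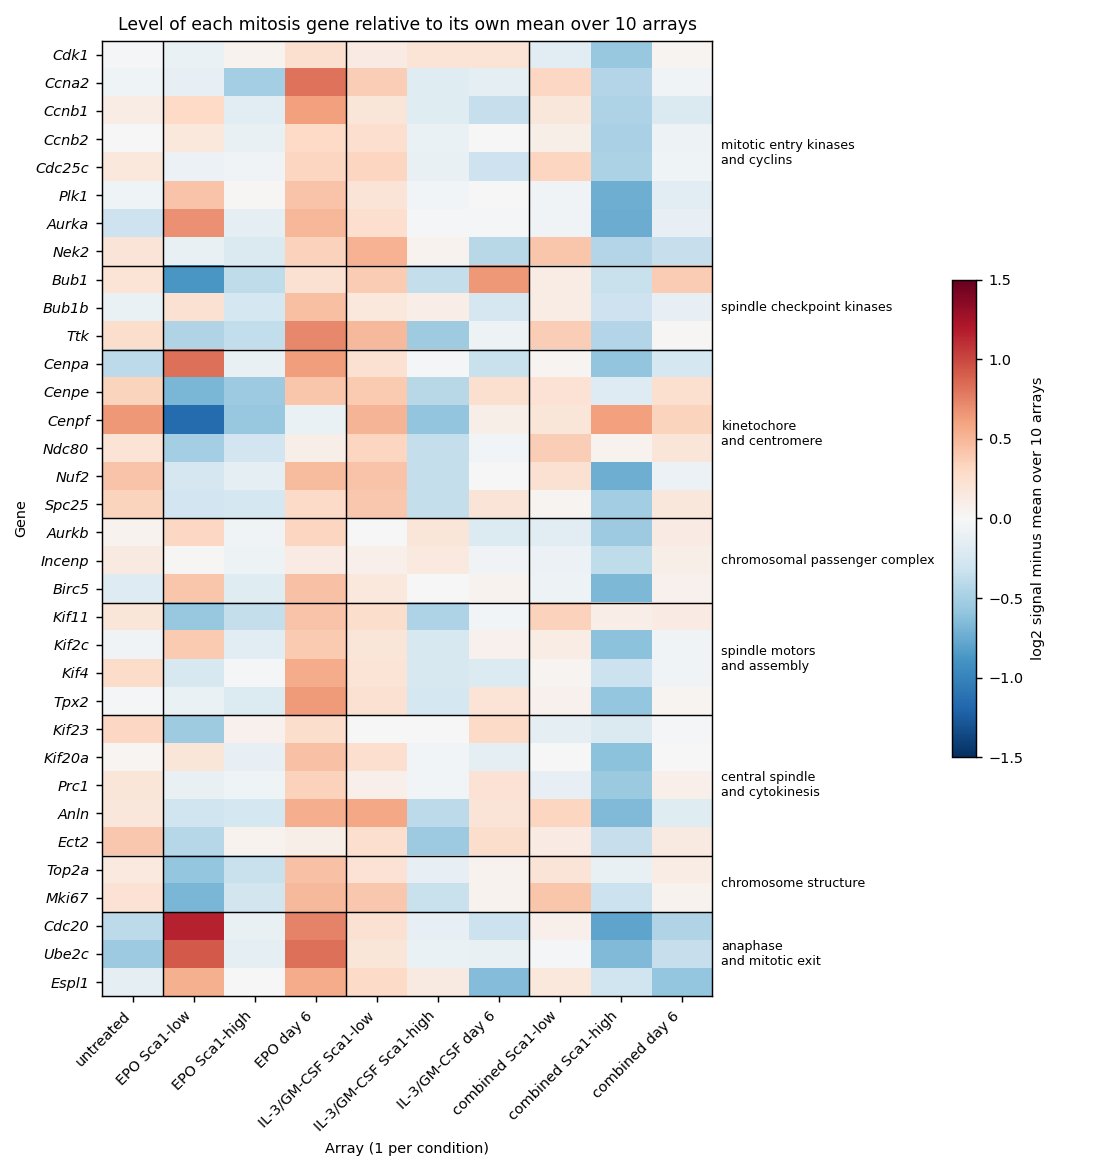
Level of each of the 34 mitosis genes on the 10 arrays, as log2 signal minus the gene's own mean over the arrays (red higher, blue lower), with genes grouped by role. Combined Sca1-high is the lowest array for 22 genes and EPO day 6 the highest for 20, while EPO Sca1-low holds the highest levels of Cdc20, Ube2c, Cenpa and Aurka and the lowest of 8 other genes.

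The genes did not all follow 1 pattern. Over the 561 pairs of the 34 genes, the correlation of levels across the 10 arrays ran from -0.66 (Cenpf with Cdc20) to 0.99 (Cenpa with Cdc20), with a median of 0.56 and 74 pairs below 0. These correlations describe 10 arrays that share treatments and slides. Cdc20, Ube2c, Cenpa and Aurka formed one end: Cdc20 correlated with Ube2c at 0.97 and with Aurka at 0.95. Mki67, which codes for the proliferation marker Ki-67 that coats mitotic chromosomes, correlated at 0.94 with Top2a, at 0.93 with Cenpe and at 0.90 with Kif11, but at -0.05 with Cdc20.

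The values of the first set show where it stood apart. Cdc20 was at 6.34 in untreated cells, at 7.89, 6.63 and 7.48 in EPO Sca1-low, Sca1-high and day 6 cells, at 6.97, 6.62 and 6.42 with IL-3/GM-CSF and at 6.82, 5.95 and 6.30 with the combined factors, in the same order. Ube2c, the ubiquitin-conjugating enzyme that works with the anaphase-promoting complex, was at 4.06 in untreated cells, at 5.53, 4.47 and 5.44 under EPO, at 4.79, 4.52 and 4.50 with IL-3/GM-CSF and at 4.59, 3.96 and 4.26 with the combined factors. Cenpa, the histone variant of centromeres, was at 3.98 in untreated cells, at 5.20, 4.26 and 5.00 under EPO, at 4.61, 4.34 and 4.04 with IL-3/GM-CSF and at 4.41, 3.78 and 4.12 with the combined factors. In all 3 genes EPO Sca1-low and EPO day 6 were the highest arrays and combined Sca1-high the lowest.

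Aurka, a kinase of the spindle poles, had the same order at the top. Its level was 4.38 in untreated cells, 5.38, 4.54 and 5.19 under EPO, 4.95, 4.67 and 4.68 with IL-3/GM-CSF and 4.64, 3.96 and 4.57 with the combined factors. Espl1, the separase that cuts cohesin at anaphase, was also highest on EPO day 6 and EPO Sca1-low. Its level was 2.37 in untreated cells, 3.05, 2.52 and 3.07 under EPO, 2.80, 2.65 and 1.86 with IL-3/GM-CSF and 2.67, 2.21 and 1.93 with the combined factors, with the lowest values on the day 6 arrays of these last treatments.

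The second set was low on EPO Sca1-low and not on EPO day 6. Mki67 was at 6.62 in untreated cells, at 5.71, 6.13 and 6.89 under EPO, at 6.80, 6.06 and 6.45 with IL-3/GM-CSF and at 6.81, 6.08 and 6.46 with the combined factors. Bub1, a kinase of the spindle checkpoint, was at 2.52 in untreated cells, at 1.45, 1.94 and 2.54 under EPO, at 2.69, 1.96 and 2.96 with IL-3/GM-CSF and at 2.42, 1.98 and 2.69 with the combined factors. Cenpe, a kinetochore motor, was at 4.31 in untreated cells, at 3.28, 3.43 and 4.39 under EPO, at 4.37, 3.55 and 4.21 with IL-3/GM-CSF and at 4.19, 3.78 and 4.21 with the combined factors. In all 3 genes EPO Sca1-low was the lowest array, and EPO day 6 was within 0.3 of untreated cells. Their Sca1-high levels were also below untreated cells in every treatment. Ttk, which correlated with Mki67 at 0.94, was lowest on IL-3/GM-CSF Sca1-high at -1.40, with EPO Sca1-low at -1.31.

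Top2a and Cdk1 are often used to mark dividing cells. Top2a followed the second set, with its lowest level on EPO Sca1-low and its highest on EPO day 6. The largest difference from untreated cells was -0.73 for Top2a, on EPO Sca1-low, and -0.55 for Cdk1, on combined Sca1-high. Top2a, the topoisomerase that untangles chromosomes, was at 4.23 in untreated cells, at 3.50, 3.75 and 4.52 under EPO, at 4.29, 3.96 and 4.14 with IL-3/GM-CSF and at 4.27, 3.97 and 4.19 with the combined factors. Cdk1 was at 4.07 in untreated cells, at 3.99, 4.14 and 4.34 under EPO, at 4.22, 4.29 and 4.29 with IL-3/GM-CSF and at 3.92, 3.52 and 4.14 with the combined factors, with combined Sca1-high below the other arrays. Cdk1 had 3 probes, whose lowest correlation over the arrays was -0.02 and whose fraction differences were 0.0025 to 0.45, and those of Tpx2 correlated at -0.20, so both rest on the choice of probe. Of the 9 genes with several probes, the other 7 had lowest correlations of 0.57 to 0.99.

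The first comparison asked how cells sorted for low Sca1 at day 3 differed from those sorted for high Sca1. All but 1 of the 34 mitosis genes had an estimate above 0, that is, higher in Sca1-low cells, with a median of 0.40. Cdc20 had the highest estimate, 0.83 (SE 0.26), followed by Ube2c at 0.66 (SE 0.24), Anln at 0.64 (SE 0.29), Cenpa at 0.61 (SE 0.23) and Aurka at 0.60 (SE 0.22). The exception was Kif23, a motor of the central spindle, at -0.17 (SE 0.24). Without the EPO pair all 34 estimates were above 0, and with quantile normalization or normexp 28 or 30 were. Over all genes the median was 0.17 and 60.3% had an estimate above 0.

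None of these differences passed the test. The limma fit of the 6 day 3 arrays, with treatment as a block, had 2 residual degrees of freedom, and its error is the unevenness of the fraction difference across treatments. After Benjamini-Hochberg adjustment over all genes it called 4.11% of genes higher in Sca1-low cells, 6.95% lower and 0 of the 34 mitosis genes. The lowest adjusted p among them was 0.114, for Cdc20. At an unadjusted p under 0.05 there were 6 of the 34 (17.6%), namely Cdc20, Kif2c, Aurka, Ccna2, Ube2c and Cenpa, against 31.3% of all genes. That count became 2 with quantile normalization, 3 with normexp, 1 with no filter on dim probes, 2 without the IL-3/GM-CSF pair and 0 without the combined pair. The lowest lower limit of the 95% intervals was -1.02, for Cenpf, and the highest upper limit was 1.51, for Cdc20. The median SE of the 34 estimates was 0.23, so these arrays do not settle most shifts of the size seen. With the genes restricted to those well above background on all 10 arrays, limma called Cdc20 (adjusted p = 0.0436), and under the other 9 settings tried it called 0 of the 34, with a lowest adjusted p of 0.0558 to 0.436.

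**Figure D3:**
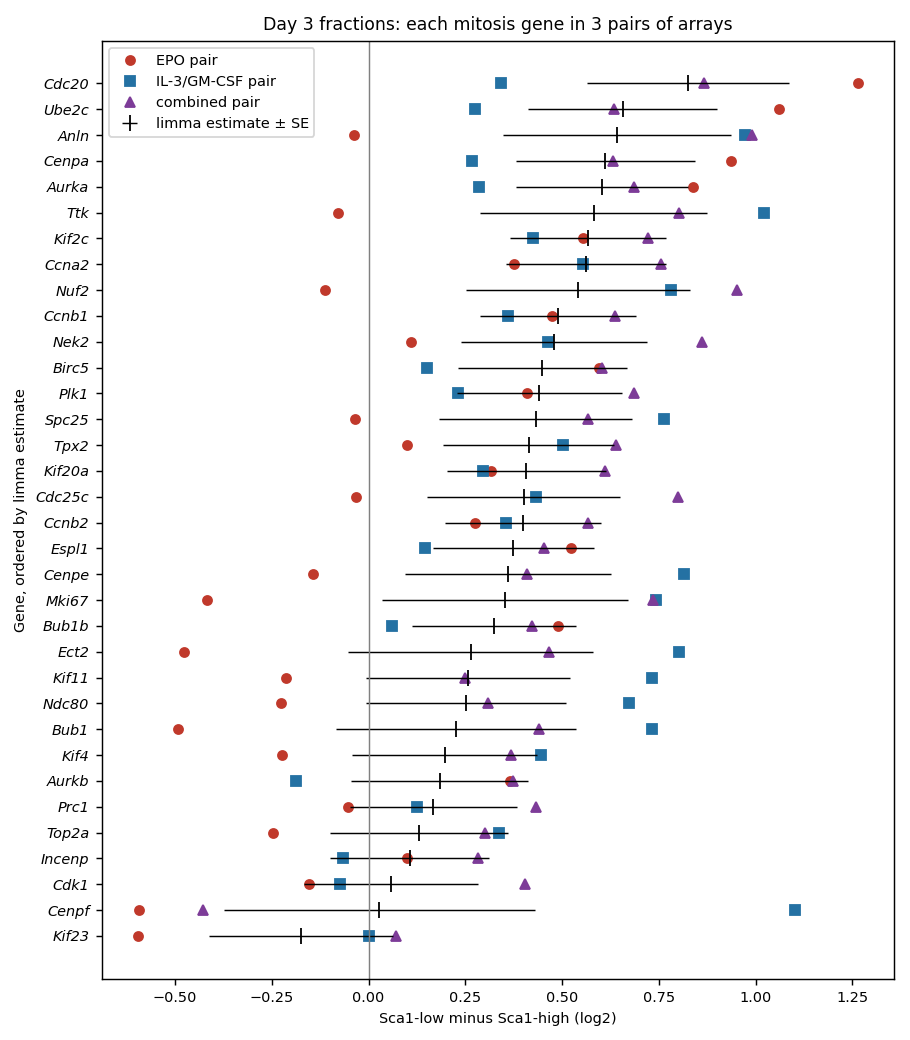
Sca1-low minus Sca1-high at day 3, in log2, for each mitosis gene: points are the EPO, IL-3/GM-CSF and combined pairs (1 array each side), and black marks are the limma estimate with its SE. For Cdc20 the EPO pair is at 1.27, above the other pairs, while for 15 genes it lies below 0 with both other pairs above 0.

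The 3 treatments gave different pictures behind this estimate. Under EPO the median of the 34 genes was 0.03 (all genes 0.16), and 17 were above 0, against 57.1% of all genes. Under IL-3/GM-CSF it was 0.39 (all genes 0.07), with 31 above 0, against 54.2% of all genes. Under the combined treatment it was 0.59 (all genes 0.24), with 33 above 0, against 63.2% of all genes. Above 0 in all 3 pairs were 15 of the 34, against 34.4% of all genes. Another 15 were below 0 under EPO and above 0 in both other pairs, a pattern seen in 11.8% of all genes. With quantile normalization or normexp the median of the EPO pair became -0.13 or -0.12, and those of the other pairs stayed above 0.3.

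At least 2-fold differences were few. Under EPO, where 12.3% of all genes were at least 2-fold higher and 14.6% lower in the Sca1-low fraction, Cdc20 (1.27) and Ube2c (1.06) were higher and 0 of the 34 lower. Under IL-3/GM-CSF, with 9.31% of all genes higher and 13.8% lower, Cenpf (1.10) and Ttk (1.02), a checkpoint kinase, were higher and 0 lower. Under the combined treatment, with 11.8% higher and 11.9% lower, 0 of the 34 reached 2-fold in either direction, and the highest was Anln, a scaffold of the contractile ring, at 0.99. The all-gene split for that pair depended on scaling, at 1689 higher and 1700 lower as given and at 787 higher and 1399 lower with normexp.

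By role, the 8 entry kinases and cyclins had medians of 0.33, 0.36 and 0.69 in the EPO, IL-3/GM-CSF and combined pairs. Ccna2, a cyclin of S phase and early mitosis, differed by 0.38, 0.55 and 0.76, and Ccnb1, the cyclin partner of Cdk1 in mitosis, by 0.47, 0.36 and 0.64. Plk1, a kinase needed for spindle assembly and mitotic exit, differed by 0.41, 0.23 and 0.69. Cdk1 itself differed by -0.15, -0.07 and 0.40. The phosphatase gene Cdc25c, whose product activates Cdk1, differed by -0.03, 0.43 and 0.80.

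Of the 17 genes below 0 under EPO, 9 were checkpoint, kinetochore or motor genes and 4 cytokinesis genes. Of the checkpoint kinases, Bub1 differed by -0.49, 0.73 and 0.44 and Ttk by -0.08, 1.02 and 0.80, whereas Bub1b differed by 0.49, 0.06 and 0.42. Ndc80, Nuf2 and Spc25, subunits of the Ndc80 complex that grips microtubules, differed by -0.23, -0.11 and -0.03 under EPO, by 0.67, 0.78 and 0.76 under IL-3/GM-CSF and by 0.31, 0.95 and 0.57 under the combined treatment. These 3 subunits had the same sign as each other within each treatment. Cenpf, another kinetochore protein, differed by 1.10 in the IL-3/GM-CSF pair and -0.43 in the combined pair, and under EPO its Sca1-low level was not well above background. The dim probe of Nuf2 differed by 1.76 between fractions on average, against 0.54 for the probe used.

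Among the motors, Kif11, which pushes the spindle poles apart, differed by -0.21, 0.73 and 0.25 in the same order. Kif2c, which shortens microtubules at kinetochores, differed by 0.55, 0.42 and 0.72 and so stayed above 0 throughout. Of the cytokinesis genes, Ect2, which switches on the contractile ring, differed by -0.48, 0.80 and 0.47, and Kif23 by -0.60, 0.00 and 0.07. Mki67 differed by -0.42, 0.74 and 0.74 and Top2a by -0.25, 0.34 and 0.30.

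In the chromosomal passenger complex, Birc5 (survivin) differed by 0.60, 0.15 and 0.60, the kinase Aurkb by 0.37, -0.19 and 0.37, and Incenp by 0.10, -0.07 and 0.28. The genes of anaphase and exit, Cdc20, Ube2c and Espl1, were above 0 in every pair. Their median of 1.06 under EPO was the highest of the 8 role groups in that pair, and under IL-3/GM-CSF it was 0.28.

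The values of the EPO pair tended to be lower for longer genes. Across the 34 genes, the difference between the EPO fractions had a rank correlation of -0.69 with the genomic span of the gene in GRCm38.p6, against -0.21 across all 14298 genes. In the IL-3/GM-CSF pair it was 0.52 (all genes 0.06), and in the combined pair -0.30 (all genes -0.11). Within a pair the points share 2 arrays, and the genes are not independent. The EPO Sca1-low array had the lowest signal of the series and a quality summary of ExtractionEvaluate, which it shared with 4 other day 3 arrays. The part of gene span, RNA quality or signal strength in these values was not tested.

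**Figure D4:**
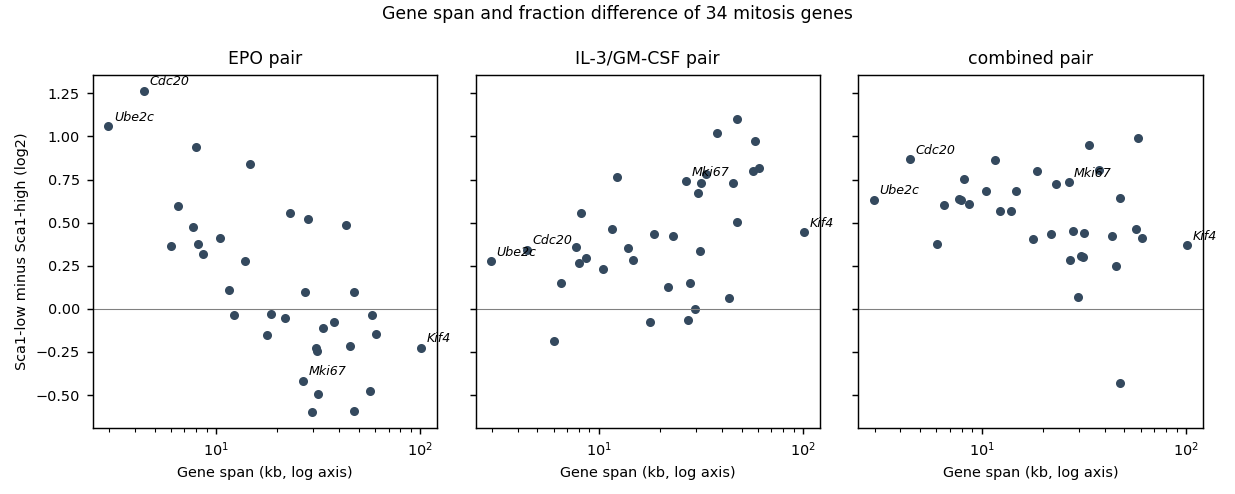
Sca1-low minus Sca1-high (log2) against the genomic span of the gene (kilobases, log axis) for the 34 mitosis genes in the EPO, IL-3/GM-CSF and combined pairs. The rank correlation is -0.69 in the EPO pair, where short genes such as Cdc20 and Ube2c are high, 0.52 in the IL-3/GM-CSF pair and -0.30 in the combined pair.

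The next comparison set each treatment against untreated cells. In limma's additive model over all 10 arrays, 0 of the 34 genes were called under EPO, IL-3/GM-CSF or the combined treatment, where it called 0% of all genes in either direction. At an unadjusted p under 0.05 there were 2 of the 34 under EPO, Ube2c at 1.08 (SE 0.35) and Cdc20 at 0.99 (SE 0.37), both with adjusted p = 0.460 in limma, and 0 under the other treatments. The count under EPO was 1 with normexp or without EPO Sca1-low, either Sca1 fraction of the combined treatment or combined day 6, and 5 without IL-3/GM-CSF Sca1-high. The medians of the 34 were -0.10 for EPO, -0.07 for IL-3/GM-CSF and -0.22 for the combined treatment, against 0.13, 0.02 and -0.04 for all genes. For EPO the lowest lower limit of the 95% intervals was -2.59, for Cenpf, and the highest upper limit was 1.93, for Ube2c. With slide as a block the medians turned to 0.66, 0.79 and 0.22 (all genes 0.24, 0.21 and 0.08), and limma called 0 of the 34 genes and 1048, 300 and 63 of all genes. These comparisons share the untreated array, and none of the IL-3/GM-CSF arrays was on its slide.

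Single arrays show what the averages join. In EPO Sca1-low minus untreated, Cdc20 (1.55), Ube2c (1.46) and Cenpa (1.21) were at least 2-fold higher, where 18.5% of all genes were, and Bub1 (-1.07), Cenpe (-1.02) and Cenpf were at least 2-fold lower, where 17.7% of all genes were. Since the EPO Sca1-low signal of Cenpf was not well above background, it can only be called at least 1.81-fold lower there. The all-gene split of this comparison also moved with scaling, from 2649 higher and 2529 lower to 1875 and 2835 with quantile normalization. In EPO day 6 minus untreated, which lie on 1 slide, the same genes Ube2c (1.38), Cdc20 (1.14) and Cenpa (1.02) were at least 2-fold higher, where 11.7% of all genes were, and 0 of the 34 were lower, where 14.8% were. The median there was 0.28 (all genes 0.16) and 28 of 34 genes were above 0, or 20 with quantile normalization and 19 with normexp. The EPO day 6 array had a 75th percentile of 478, against 736 in untreated cells. On it 54.0% of named spots were well above background, the lowest share of the series, against 57.3% on EPO Sca1-low. The part of signal strength in these differences was not tested.

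In Sca1-high cells the 34 genes lay mostly below untreated cells. The median was -0.25 for EPO, -0.24 for IL-3/GM-CSF and -0.54 for the combined factors, against 0.04, 0.01 and -0.19 for all genes. In combined Sca1-high cells 0 of 34 genes were above untreated cells (4 of 34 with quantile normalization or normexp), against 36.2% of all genes. Nuf2, at -1.15, was the only one at least 2-fold lower, where 6.46% of all genes were, and 0 were at least 2-fold higher, where 8.65% were. In EPO Sca1-high and IL-3/GM-CSF Sca1-high cells Cenpf alone was at least 2-fold lower, at -1.22 and -1.24, where 1.85% and 6.4% of all genes were, and 0 were higher, where 3.64% and 9.67% were. In the Sca1-low cells of IL-3/GM-CSF and of the combined treatment 0 of the 34 were 2-fold from untreated cells, where 7.88% and 10.2% of all genes were higher and 10.5% and 11.8% lower, and the medians were 0.18 and 0.09 (all genes 0.11 and 0.08), the latter turning to -0.04 with quantile normalization. None of these 5 arrays shared a slide with untreated cells.

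At day 6 the IL-3/GM-CSF and combined arrays were close to untreated cells. Their medians were -0.12 and -0.06, against -0.06 and -0.02 for all genes, and 0 of the 34 genes were at least 2-fold apart in either, where 9.85% of all genes were higher and 9.53% lower for IL-3/GM-CSF and 8.36% higher and 6.26% lower for the combined treatment. Nek2, a centrosome kinase, was the lowest in both, at -0.61 and -0.53. Bub1 was the highest for IL-3/GM-CSF at 0.45, and Birc5 for the combined treatment at 0.25.

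**Figure D5:**
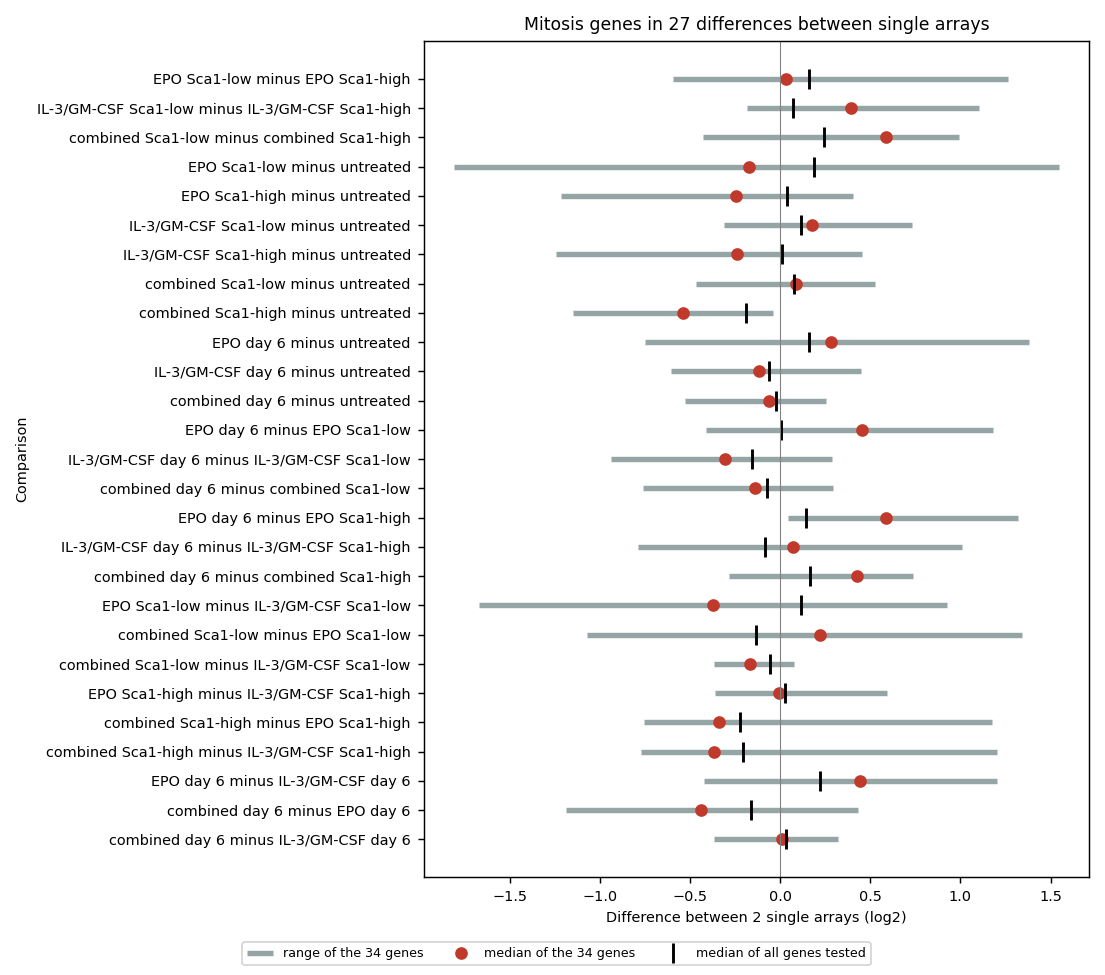
The 34 mitosis genes in 27 differences between single arrays, in log2: grey bars run from the lowest to the highest gene, red points are the median of the 34 and black ticks the median of all genes tested. EPO day 6 minus EPO Sca1-high is above 0 for all 34 genes, and combined Sca1-high minus untreated is below 0 for all 34.

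Day 6 was compared with day 3 within each treatment. Under EPO, day 6 lay above both fractions of day 3: over Sca1-high cells the median was 0.59 (all genes 0.14), with all 34 genes above 0 (31 with quantile normalization and 30 with normexp). In that comparison Ccna2 (1.32) and Ttk (1.08) were at least 2-fold higher, where 11.6% of all genes were, and 0 were lower, where 15.9% were. Over Sca1-low cells the median was 0.46 (all genes 0.01), and 6 genes were at least 2-fold higher, namely Mki67, Ttk, Bub1, Cenpe, Top2a and Kif11, where 5.24% of all genes were. At least 2-fold lower were 0 of the 34 and 8.15% of all genes. Day 6 and day 3 arrays were on different slides in every treatment. Day 3 cells were sorted by Sca1, and the day 6 labels mention no fraction. Ly6a was at -2.57 on EPO day 6, 4.55 on IL-3/GM-CSF day 6 and 3.99 on combined day 6. Time cannot be told apart from these differences.

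Under the other treatments day 6 lay between the fractions of day 3. GM-CSF was added only after day 3 in both, so time cannot be told apart from it either. For IL-3/GM-CSF the median was -0.30 against Sca1-low and 0.07 against Sca1-high cells (all genes -0.16 and -0.08). For the combined treatment it was -0.14 and 0.43 (all genes -0.07 and 0.16). Bub1, at 1.01 over IL-3/GM-CSF Sca1-high cells, was the single gene at least 2-fold apart in these 4 comparisons. There 5.73% of all genes were at least 2-fold higher and 8.02% lower, a split of 819 to 1147 genes that turned to 513 and 429 with normexp. Over IL-3/GM-CSF Sca1-low cells the shares were 13.6% and 11.8%. Over combined Sca1-low cells these shares were 14.1% and 11.5%, and over combined Sca1-high cells 6.22% and 6.14%. Over the 3 treatments, limma's additive model gave a median of 0.22 for day 6 minus day 3 (all genes 0.00) and called 0 of the 34 genes and 0% of all genes. Bub1, at 0.66 (SE 0.24), was the only one of the 34 with an unadjusted p under 0.05 (adjusted p = 0.482 in limma), against 9.58% of all genes. The count of the 34 was 0 without IL-3/GM-CSF Sca1-high, combined Sca1-high or the day 6 array of either treatment. With slide as a block the median turned to -0.55 (all genes -0.13), and 0 of the 34 and 656 of all genes were called.

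The treatments were last compared with each other. In the additive model, limma called 0 of the 34 genes in each of the 3 comparisons. It called 0.00699% of all genes lower for EPO minus IL-3/GM-CSF, 0.00699% higher for combined minus EPO and 0% in the other directions and for combined minus IL-3/GM-CSF. For combined minus EPO, 6 of the 34 (17.6%) had an unadjusted p under 0.05 in limma, against 23.9% of all genes. Of the 6, 5 were lower in combined cells. The count of 6 became 2 with quantile normalization or normexp, 3 with slide as a block, 2 without either combined array of day 3, 3 without combined day 6 and 4 without EPO day 6. Lower in combined cells were Cdc20 at -0.98 (SE 0.26), Ube2c at -0.88 (SE 0.25), Cenpa at -0.72 (SE 0.25), Aurka at -0.65 (SE 0.22) and Plk1 at -0.61 (SE 0.20). In limma their adjusted p lay between 0.154 and 0.179. The exception was Cenpf, at 0.98 (SE 0.39), of which only 1 of 3 EPO arrays was well above background. For EPO minus IL-3/GM-CSF, Cdc20 alone had an unadjusted p under 0.05 in limma, at 0.66 (SE 0.26), against 18.8% of all genes. For combined minus IL-3/GM-CSF there were 0 of the 34, against 1.83% of all genes. The former count was 0 with quantile normalization, normexp, no filter or slide as a block, 4 without EPO Sca1-high, 3 without IL-3/GM-CSF Sca1-high and 0 without any other single treated array.

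At day 6 the EPO array lay above that of IL-3/GM-CSF by a median of 0.44 (all genes 0.22). Espl1 (1.21) and Cdc20 (1.06) were at least 2-fold higher, where 16.2% of all genes were, and 0 lower, where 17% were. The combined array lay below EPO, on the same slide, by 0.44 (all genes 0.16 below). Cdc20 (-1.19), Ube2c (-1.18) and Espl1 (-1.14) were at least 2-fold lower, where 13.2% of all genes were, and 0 higher, where 16.6% were. Between the combined and IL-3/GM-CSF arrays of day 6 the median was 0.01, a value whose sign turned with either other scaling, and 0 genes were 2-fold apart, where 4.48% of all genes were higher and 3% lower. In the Sca1-low fraction, Cenpf, Bub1, Mki67 and Cenpe were at least 2-fold lower under EPO than under IL-3/GM-CSF, where 10.8% of all genes were, and 0 higher, where 9.62% were. For Cenpf the bound is at least 1.64-fold. Combined Sca1-low cells had Mki67 higher than EPO Sca1-low cells, at 1.10, and Cdc20 lower, at -1.07, where 11.4% of all genes were at least 2-fold higher and 10.6% lower. Cenpf was also past 2-fold there by its measured values, and its bound is at least 1.31-fold. Between combined and IL-3/GM-CSF Sca1-low cells 0 of the 34 were 2-fold apart, where 4.29% of all genes were higher and 2.25% lower. In the Sca1-high fraction 0 were 2-fold apart between EPO and IL-3/GM-CSF, where 5.89% of all genes were higher and 7.53% lower. Cenpf was higher in combined Sca1-high cells than in those of EPO (1.18) and IL-3/GM-CSF (1.20), where 8.99% and 4.6% of all genes were higher and 9.11% and 5.53% lower.

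The fractions were also compared in other genes of the cell cycle, beside 4.11% of all genes called higher, 6.95% called lower and an all-gene median of 0.17. Of 54 further mitosis genes tested, limma called 2 higher in Sca1-low cells, Cdc25b, a Cdk1-activating phosphatase gene, at 1.42 (SE 0.20, adjusted p = 0.0198), and Oip5, whose product loads Cenpa, at 1.18 (SE 0.21, adjusted p = 0.0350). It called 0 lower, and the median was 0.50. Hmmr and Mad2l1 had 1.00 and 0.90 and did not pass. Of 16 condensin and cohesin genes and 15 genes of the anaphase-promoting complex, 0 passed, with medians of 0.33 and 0.28. Of 30 replication genes, Cdc6, which loads the replicative helicase, was called higher at 1.32 (SE 0.22), 0 were called lower and the median was 0.43. The share called higher in each of these 4 lists was below that of all genes.

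Regulators and genes of G1 were mixed. Of 24 genes that regulate mitosis gene transcription, E2f2 was higher at 1.35 (SE 0.23) and the DREAM pocket protein gene Rbl2 lower at -1.15 (SE 0.20), with a median of 0.12. Rb1, at 1.35, and E2f4, at 1.17, did not pass. Of 13 genes of G1, the Cdk inhibitor gene Cdkn1c (2.08, SE 0.39), well above background on 8 of the 10 arrays, and Ccne1, a cyclin of S phase entry (1.81, SE 0.25), were higher. Ccnd1, a cyclin of early G1, was lower at -1.82 (SE 0.22), as was the inhibitor gene Cdkn2d at -1.56 (SE 0.22), the latter named after its value was seen. Of 13 housekeeping genes 0 were called higher and 1 lower, B2m, with a median of 0.02.

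Markers of EML progenitors and of erythroid, neutrophil, mast cell and monocyte cells had medians between the fractions farther from 0 than the 34 genes. Those of megakaryocytes and lymphoid cells had not. Of 11 erythroid markers limma called 8 higher and 0 lower in Sca1-low cells, with a median of 3.33, and their summed level was 9.67 to 10.96 in Sca1-low and 8.30 to 8.86 in Sca1-high cells. Of 12 neutrophil markers 0 were higher and 3 lower, with a median of -1.60 and summed levels of 4.95 to 7.10 and 8.71 to 9.63. The neutrophil median was 0.54 in the EPO pair, -3.57 in the IL-3/GM-CSF pair and -2.44 in the combined pair. Of 8 mast cell, 7 monocyte and 7 megakaryocyte markers 3, 3 and 2 were lower and 0 higher. Their medians were -1.99, -3.87 and -0.30, with summed levels in Sca1-low against Sca1-high cells of 4.57 to 4.68 against 7.33 to 8.93, 2.09 to 3.44 against 4.68 to 7.72 and 5.06 to 6.63 against 4.80 to 6.21. Of 6 lymphoid markers 1 was lower, with a median of -0.03 and summed levels of 2.83 to 4.33 against 3.18 to 3.85. All 8 markers of EML progenitors were well above background in untreated cells, and 3 were called lower in Sca1-low cells, Ly6a, Cd34 and Ptprc. Their list had a median of -0.68 and summed levels of 6.59 to 6.76 against 7.24 to 8.30. Ly6a encodes Sca1, by which the cells were sorted, so its difference follows from the sort, and it is part of the median and the summed level. The part of these differences in cell type in the values of the mitosis genes was not tested.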

How the data were processed

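The members and gene lists were chosen with earlier results of these data known. RNA of sorted EML-C1 cells was labelled with Cy3, per the labels' protocols, and the deposited values are spot intensities from Agilent Feature Extraction 11.0.1.1, per the submitters' processing notes; the deposited value table held the same intensities. Of 59305 spots that were not controls, outlier spots were set to missing. The log2 signal minus the 75th percentile of its array was taken and repeat spots were averaged. A RefSeq table (GRCm38.p6) named 27235 of 55681 probes, and the brightest probe per symbol was kept. The test took genes with signal well above background on 2 or more arrays.

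Fractions were compared in limma 3.58.1 (R 4.3.3) on 6 arrays with treatment as a block, and treatments and days in an additive model over 10 arrays with 4 residual degrees of freedom. The fraction fit was tested on simulated arrays with known changes. The additive model was checked only for returning known effects from values without noise. With 1 array per condition, p-values measure unevenness across conditions and not replicate error. Single arrays were compared without a test, counting genes that differed 2-fold or more with the brighter side well above background. Any of the 34 genes could be named, besides at most 4 genes of each other list, those with the largest fraction difference, and the 10 genes closest to the mean level of the 34. A summed level is the log2 of the summed signal of a list. Alternatives were quantile normalization, normexp with an offset of 50, the value table, dropping the filter or asking it of every array, averaging a gene's probes, leaving out arrays, and slide as a block. Normexp used median spot signals, a choice made after seeing the files.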

Additional observations from a re-analysis of the deposited data

Results flagged for a closer look

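In 6 genes the EPO pair of fractions lay below 0 and both other pairs above 0 by at least 0.2 on each side, under all 3 scalings. The EPO pair minus the mean of the other pairs was -1.16 for Mki67, -1.11 for Ect2, -1.08 for Bub1, -0.72 for Ndc80, -0.70 for Kif11 and -0.63 for Kif4. The genes were picked by this rule, so the sign and a minimum size of these values follow from the choice. The share of all genes passing the same rule was not counted. The looser pattern, below 0 under EPO and above 0 in both other pairs, was seen in 15 mitosis genes and in 11.8% of all genes. With 1 array on each side of a pair, the difference was not tested. On EPO day 6 the 6 genes were 0.12 below to 0.27 above untreated cells for Mki67, Bub1, Ndc80, Kif11 and Kif4, and 0.32 below for Ect2.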

How the results depend on the processing

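No paired analysis was possible because each condition has a single array, so that no replicate number pairs arrays beyond the block by treatment that the fraction fit already holds. Counts of the 34 genes at an unadjusted p under 0.05 rested on single arrays: leaving out 1 array at a time gave 1 to 5 for EPO minus untreated, 0 to 4 for EPO minus IL-3/GM-CSF, 2 to 6 for combined minus EPO and 0 to 1 for day 6 minus day 3. A move of 0.2 was counted as a change, a stated choice. Over all results and alternatives, 796 of 867 values were counted as the same. That label allowed a median to shift by less than 0.2 and a count to change by a ratio of up to 1.5. Some of these values could not differ, since the value table held the same intensities. Leaving out an array that a comparison does not use can also leave its median unchanged. Where limma called 0 of all genes, 0 of the 34 had to be called. The total therefore does not measure stability. The fraction median of the 34 minus that of all genes, 0.23, was so counted at 0.05 with no filter on dim probes. The count of the 34 genes called between fractions stayed at 0 except with the filter on all 10 arrays (1, Cdc20). Limma's calls over all genes, 588 higher and 994 lower, became 1347 and 1081 with that filter, 314 and 720 with no filter, 106 and 353 without the combined pair, 0 without the IL-3/GM-CSF pair and 0 with all 10 arrays.

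The fraction difference turned sign with quantile normalization for Cdk1 (-0.12), Cenpf (-0.087), Incenp (-0.18), Prc1 (-0.023) and Top2a (-0.034), and with normexp for Cdk1 (-0.18), Incenp (-0.16) and Prc1 (-0.024). Leaving out 1 pair at a time gave -0.11 to 0.17 for Cdk1, -0.027 to 0.59 for Bub1, -0.51 to 0.34 for Cenpf, -0.30 to 0.036 for Kif23 and -0.0056 to 0.63 for Ect2.

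The median of the 34 genes minus that of all genes moved in 12 cases. With slide as a block it became 0.43 for EPO, 0.58 for IL-3/GM-CSF and 0.14 for combined minus untreated, -0.27 for combined minus EPO, -0.48 for combined minus IL-3/GM-CSF and -0.42 for day 6 minus day 3. With no filter on dim probes, which brings in dimmer genes, it became -0.48 for EPO minus untreated, 0.13 for combined minus EPO, -0.43 and 0.11 for the EPO and IL-3/GM-CSF fractions and -0.19 for EPO day 6 minus untreated. Leaving out 1 treated array at a time gave -0.32 to 0.018 for EPO minus untreated, the highest without EPO Sca1-low. The cause was not tested. Precision is limited by 1 array per condition, and Cenpf by its signal near background.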

Other observations

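The 10 tested genes outside the 34 whose levels followed the mean level of the 34 most closely over the 10 arrays were on none of the lists. They were Golga3 (r = 0.988), Psmd1, Cox15, Fignl1, Snrpb2, Hat1, Rbmxl1, Ndufs4, Lonp2 and Cetn3 (r = 0.966). The 10 arrays share treatments and slides, and these genes were picked from 14298 for the likeness itself.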
